A study of Mus musculus with 8 samples.

Results

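The 8 germline stem (GS) cell lines of this series carried titles in 2 styles, and the lines with one style were compared with those of the other. Block A held the 4 lines whose titles are joined with hyphens, which are ICSI lines 11 and 17 and control lines 29 and 37. Block B held the 4 lines whose titles are joined with low dashes (_), which are ICSI lines 20 and 21 and control lines 44 and 45. The blocks together make up all 8 of the 8 samples, and the rule used the titles only, with no measured value. GS cells are cultured spermatogonial stem cells. These lines were derived from CD9+ spermatogonia, sorted with magnetic beads from mature testes of wild-type B6-F1 males. F1 names the generation of these males. ICSI lines came from males born after intracytoplasmic sperm injection, in which a sperm is injected into an oocyte, and control lines from males born after natural mating. The study calls the sperm used for ICSI wild-type, and also states that it came from green mice, which express Egfp. Whether each line carries Egfp was not examined here. The labels give 1 medium for all lines, with GDNF, FGF2, a cholesterol solution, estradiol, progesterone and knockout serum replacement, and none was treated. The study's methods describe plating on gelatin to remove embryonic fibroblasts for its PCR samples, and whether it was done for these libraries is not given in the sources used here. The ages of the males, the passage numbers and what the title styles stand for are not given in the sources used here. The line numbers are also numbers of single F1 mice in gels of the study's supplement, where GS cells of the block A lines carry the same numbers. The n counts lines, and each p-value measures the spread between lines.

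Each block held 2 lines of each origin, and origin was a covariate of the comparison. Batch, culture and library preparation cannot be told apart from the block, because each could follow the title style. Reads recovered from the deposited values numbered 24707391 to 26661735 in the block A lines and 32355914 to 44275447 in the block B lines, and the submitters' processing notes list other versions of the software for each block. A fixed gene length gave whole reads in all 8 samples for 11990 of the 12000 genes tested, so both blocks were scaled with the same gene lengths. Values are FPKM, fragments scaled to gene length and library size, and differences are block B minus block A on the log2(FPKM + 1) scale, fitted with limma. The values of lines are always given in the order ICSI 11, ICSI 17, control 29 and control 37 for block A, and ICSI 20, ICSI 21, control 44 and control 45 for block B.

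GS cells depend on GDNF, which binds the receptor GFRA1 and its partner RET, and on FGF2. Both ligands signal through ERK and AKT kinases and keep up transcription factors such as ETV5, LHX1 and ID4 that hold the cells in the undifferentiated state. Retinoic acid pushes spermatogonia the other way, towards KIT-expressing cells that will enter meiosis.

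Of 12000 genes that averaged 1 FPKM or more over the lines, 10.2% were called higher and 5.76% lower in block B at an adjusted p under 0.05, or 16.0% in either direction. These shares are the background against which each gene group is read. The median log2 difference of all genes tested was 0.028, and 87 genes were higher and 57 lower by over 1. The FPKM values of the blocks did not overlap for 26.8% of the genes, with the block B lines above in 16.0% and below in 10.8%. Of the calls, 64.0% were higher, against 51.2% under quantile normalization and 54.5% under median-of-ratios scaling. The number of calls rested on single block A lines more than on single block B lines. It was 1917 with all lines, 210 without ICSI 11, 287 without control 37, 429 without ICSI 17 and 1044 without control 29, and 675 to 2691 when a block B line was left out. Of the 98 called genes named here with their values, 69 lost the call without ICSI 11, 66 without control 37, 53 without ICSI 17, 47 without control 44, 31 without control 29, 26 without ICSI 20, 25 without control 45 and 2 without ICSI 21, and none changed its sign under any alternative.

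The GDNF receptor and the genes known to respond to GDNF were mostly higher in block B. Of 22 tested, 13 were called higher and 0 lower, and their median log2 difference was 0.70. Lhx1, a homeobox factor induced by GDNF, was at 4.59, 3.34, 5.6 and 5.48 FPKM in the block A lines and 18, 9.71, 16.5 and 28.3 FPKM in the block B lines (difference 1.66 ± 0.22 SE, adjusted p = 0.00819 by limma). ICSI 21 was the lowest block B line and control 45 the highest, and all 4 lay above the block A lines. Dusp6, a phosphatase that ERK signalling induces and that switches ERK off, was at 68.1, 62, 45.9 and 65.9 FPKM and at 150, 136, 198 and 145 FPKM (difference 1.36 ± 0.16 SE, adjusted p = 0.00792 by limma). Eomes, a T-box factor of a subset of stem cells, was at 2.44, 2.64, 1.68 and 1.83 FPKM and 9.05, 3.68, 7.47 and 8.81 FPKM (difference 1.34 ± 0.25 SE, adjusted p = 0.016 by limma). The blocks stood apart for each of these genes, with ICSI 21 next to the block A lines for Eomes. Spry4, another feedback inhibitor of the ERK pathway, was at 14 ± 3.68 FPKM in block A and 32 ± 4.18 FPKM in block B (SD, n = 4 each) and was called higher (limma adjusted p = 0.00792).

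The receptor genes Gfra1 and Ret differed by close to the median of the list, 0.70. Lhx1, Dusp6 and Eomes were named because they were among its largest calls, so their larger differences are no contrast with the receptors. Gfra1 was at 38.4, 39.8, 45.5 and 42.2 FPKM in block A and 80.4, 48.5, 69 and 72.1 FPKM in the block B lines (difference 0.67 ± 0.14 SE, adjusted p = 0.0216 by limma), and Ret at 39.99, 40.5, 38.9 and 45.2 FPKM and 80.9, 43.4, 73.7 and 71 FPKM (difference 0.66 ± 0.17 SE, adjusted p = 0.0371 by limma). ICSI 21 lay close to the block A lines for both receptors and below control 37 for Ret, and the other block B lines were far above both. The count of the list was 8 of 22 without lines 20 and 44 together, and 5 to 13 without single lines. Among control lines alone its median difference was 0.83, and among ICSI lines alone 0.59.

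Of 31 ERK feedback and immediate-early genes tested, 5 were called higher (16.1%) and 1 lower (3.23%), against 10.2% and 5.76% of all genes. Their median was 0.21, and 0.12 to 0.34 without single lines. Beside Dusp6 and Spry4, Dusp4, a nuclear ERK phosphatase, was at 8.53, 8.0, 11 and 6.63 FPKM and 34.1, 12.4, 20.9 and 30.04 FPKM (difference 1.34 ± 0.29 SE, adjusted p = 0.0225 by limma), and Klf2, a zinc-finger factor, at 7.62, 5.44, 7.36 and 5.47 FPKM and 16.3, 14.4, 14.7 and 19.4 FPKM (difference 1.21 ± 0.14 SE, adjusted p = 0.00792 by limma). Neither overlapped between the blocks. Fos, which peaks within minutes of a stimulus, was at 85.1, 67.3, 124 and 67.9 FPKM and 45, 90.1, 69.97 and 113 FPKM and overlapped (difference -0.15 ± 0.27 SE, adjusted p = 0.728 by limma). Ccn1, a secreted matrix protein of the early response, was lower (difference -1.37 ± 0.37 SE, adjusted p = 0.039 by limma), with control 29 at 59.3 FPKM above all others.

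Markers of undifferentiated spermatogonia, several of which are also GDNF-responsive, counted 12 higher and 1 lower of 29 tested, with a median of 0.39. Id4, an inhibitor of helix-loop-helix factors that marks stem cells, was at 6.98, 10.2, 5.38 and 8.23 FPKM in block A and 19, 14.6, 25 and 13 FPKM in the block B lines (difference 1.11 ± 0.23 SE, adjusted p = 0.021 by limma). Zbtb16, the broadest marker of the undifferentiated pool, was at 61.2, 52.8, 50.5 and 83.7 FPKM and 61.1, 57.8, 66.4 and 61.3 FPKM, and the blocks overlapped (difference 0.02 ± 0.15 SE, adjusted p = 0.942 by limma). The lower member was Utf1, a chromatin factor of spermatogonia and pluripotent cells, at 9.51, 10.7, 13.2 and 12.8 FPKM against 2.32, 7.4, 2.66 and 4.36 FPKM (difference -1.37 ± 0.28 SE, adjusted p = 0.0203 by limma). Lines 20 and 44 had the lowest Utf1 values. The count of 12 fell to 2 without control 37, 3 without ICSI 11, and 5 without ICSI 17 or without lines 20 and 44 together, and was 7 to 12 without other single lines.

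The list of spermatogonial differentiation counted 0 higher and 4 lower of 16, with a median of -0.43. One of the 4 lower members, Rhox10, has its role in the stem cell pool, so what its fall says about differentiation is uncertain. Rhox10, an X-linked homeobox gene needed when the stem cell pool is set up, was at 17.9, 22.3, 23.3 and 22.2 FPKM and 8.72, 15.3, 11.7 and 9.17 FPKM (difference -0.90 ± 0.17 SE, adjusted p = 0.0168 by limma). Rarg, the retinoic acid receptor of spermatogonia, was at 19, 15.8, 14.9 and 15.4 FPKM and 7.01, 11.9, 7.8 and 8.13 FPKM (difference -0.85 ± 0.15 SE, adjusted p = 0.0134 by limma). Kit, the receptor that marks differentiating spermatogonia, was at 9.56, 5.9, 8.32 and 7.17 FPKM and 3.98, 5.31, 4.65 and 2.4 FPKM (difference -0.80 ± 0.21 SE, adjusted p = 0.0351 by limma). For these 3 genes every block B line was below every block A line. Dnmt3b, a DNA methyltransferase that rises at differentiation, was at 17, 14.5, 15.4 and 17.1 FPKM and 12.6, 13.6, 9.16 and 11.9 FPKM (difference -0.42 ± 0.12 SE, adjusted p = 0.0469 by limma). Stra8, the gatekeeper of meiosis induced by retinoic acid, was at 31, 25.5, 38.7 and 15.9 FPKM and 6.55, 29.7, 11.1 and 9.4 FPKM, and did not pass (difference -1.07 ± 0.42 SE, adjusted p = 0.105 by limma). ICSI 21 lay among the block A lines and the other block B lines below all of them. Sohlh2, a helix-loop-helix factor of early differentiation, did not pass either (difference 0.29 ± 0.12 SE, adjusted p = 0.126 by limma). Without control 37 the count was 0, without ICSI 11 it was 1, and without any other single line it was 2 to 6.

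General germ cell genes counted 5 higher and 0 lower of 21, with a median of 0.064, near that of all genes. The largest were Stk31 (difference 0.66 ± 0.12 SE, adjusted p = 0.0144 by limma) and Dazl, an RNA-binding protein required in germ cells, at 289, 260, 257 and 302 FPKM and 404, 365, 420 and 399 FPKM (difference 0.52 ± 0.10 SE, adjusted p = 0.0173 by limma). Ddx4, the germ cell helicase, was at 195 ± 14.7 FPKM in block A and 253 ± 18.7 FPKM in block B (SD, n = 4 each) (difference 0.37 ± 0.10 SE, adjusted p = 0.0385 by limma), and Mael, of the piRNA pathway, did not pass (difference 0.07 ± 0.11 SE, adjusted p = 0.682 by limma). Both blocks thus held abundant germ cell messages. Of 24 meiosis genes, 4 were called higher and 0 lower, but 14 of the 24 differences were below 0 and the median was -0.063. Those called higher included Smc1b, a meiotic cohesin (difference 0.71 ± 0.09 SE, adjusted p = 0.00828 by limma), and Sycp3, a lateral element of the synaptonemal complex (difference 0.64 ± 0.12 SE, adjusted p = 0.0173 by limma). Sycp2, which partners with Sycp3, was at 16.5, 13.4, 16.4 and 18.4 FPKM and 7.43, 23.7, 9.19 and 18.7 FPKM (difference -0.26 ± 0.32 SE, adjusted p = 0.602 by limma), with lines 20 and 44 below and ICSI 21 and control 45 above all block A lines. Without lines 20 and 44 the germ cell list counted 1 higher and 1 lower, and the meiosis list 1 higher. Without single lines the germ cell list counted 0 to 4 higher, with 0 without ICSI 11 or control 37, and the meiosis list 1 to 4, with 1 without ICSI 11, ICSI 17 or control 44. Without ICSI 21, 4 meiosis genes were lower.

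The pluripotency list had 3 members higher and 3 lower of 17. Besides Klf2, Tcl1, a coactivator of AKT, was at 19.6, 21.3, 21.8 and 19.2 FPKM and 64, 26.1, 37.9 and 50.2 FPKM (difference 1.01 ± 0.24 SE, adjusted p = 0.0282 by limma) and Sall4 was higher (difference 0.40 ± 0.11 SE, adjusted p = 0.0411 by limma). Dppa3, a maternal factor that protects methylation in the zygote, was lower at 2.9, 1.59, 2.37 and 2.29 FPKM against 0.253, 0.975, 0.582 and 1.09 FPKM (difference -0.94 ± 0.19 SE, adjusted p = 0.0204 by limma), next to Utf1 and Pou5f1. Without single lines the pluripotency list counted 1 to 4 higher and 0 to 3 lower, with 1 and 0 without ICSI 11, control 37 or control 44.

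**Figure D1:**
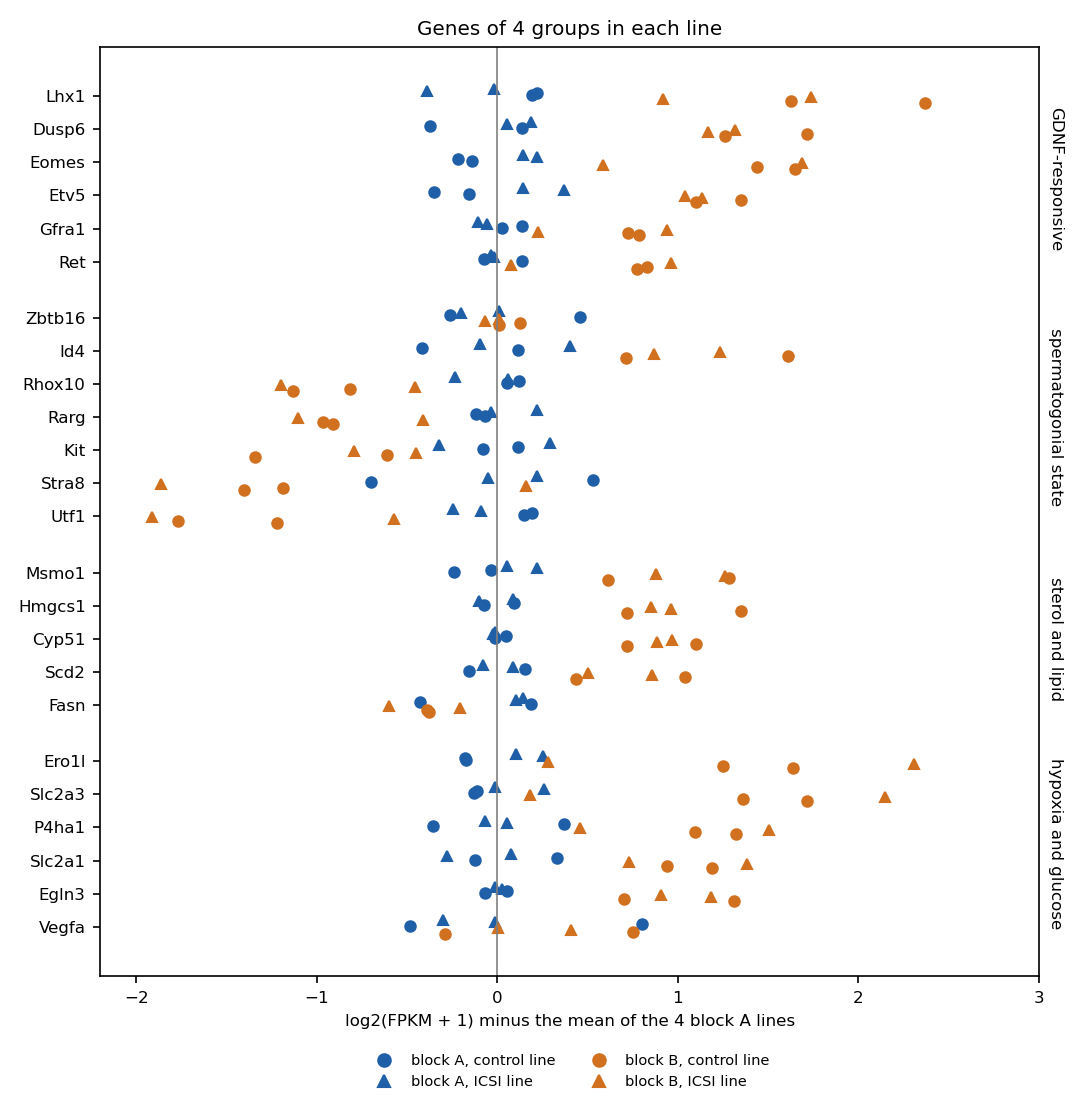
Each point is 1 line, plotted as log2(FPKM + 1) minus the mean of the 4 block A lines, for genes of 4 groups. Blue points are block A lines and orange points block B lines, with circles for control and triangles for ICSI lines. The 4 block B lines lie to the right of all block A lines for Lhx1, Dusp6, Hmgcs1 and Egln3 and to their left for Rarg, Kit and Utf1, while Zbtb16, Vegfa and Fasn overlap.

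Of 20 genes of BMP and TGF-beta signalling tested, 8 were called higher and 0 lower, and all 20 had a difference above 0 (median 0.51). The median was 0.18 without lines 20 and 44. The mean log2 level of the list was 3.78 in ICSI 20 and 3.97 in control 44, against 3.36 in ICSI 21 and 3.33 in control 45. Fibroblast and matrix markers had the same order of lines, at 4.47 and 4.75 against 3.55 and 3.17, and their part in the result was not tested. In block A, control 29 had a fibroblast level of 4.97 and a level of 3.20 for the list. Fst, follistatin, which binds and blocks activin, was at 7.43, 6.76, 8.79 and 5.62 FPKM and 24.5, 13.6, 28.1 and 18 FPKM (difference 1.40 ± 0.22 SE, adjusted p = 0.0107 by limma). Tgfb1, a ligand of the family, was at 7.87, 10.2, 4.69 and 7.23 FPKM and 12.9, 19.7, 28.6 and 12.1 FPKM (difference 1.15 ± 0.29 SE, adjusted p = 0.0326 by limma). Smad6, an inhibitory SMAD that BMP signalling induces, was at 1.29, 1.43, 2.26 and 1.21 FPKM and 5.14, 2.16, 3.65 and 6.03 FPKM (difference 0.99 ± 0.24 SE, adjusted p = 0.0291 by limma). Its blocks overlapped by ICSI 21, while those of Fst and Tgfb1 did not. The direct BMP targets Id1 (difference 0.26 ± 0.10 SE, adjusted p = 0.118 by limma) and Id3 (difference 0.34 ± 0.28 SE, adjusted p = 0.416 by limma) did not pass. The count was 2 without ICSI 11, 3 without ICSI 17, without control 37 or without lines 20 and 44 together, and 5 to 7 without other single lines.

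In the sterol pathway, which the factor SREBP2 switches on when membrane cholesterol is low, 10 of 22 genes were called higher and 0 lower, with a median of 0.36. Hmgcs1, an early enzyme of the pathway, was at 50.7, 44.4, 50.8 and 45.2 FPKM and 86.9, 94, 123 and 79.3 FPKM (difference 0.97 ± 0.14 SE, adjusted p = 0.00888 by limma). Cyp51, which demethylates lanosterol, was at 25.8, 25.6, 26.9 and 25.8 FPKM and 51.8, 48.8, 56.8 and 43.5 FPKM (difference 0.92 ± 0.09 SE, adjusted p = 0.00754 by limma), and Msmo1, which acts after it, at 13.6, 15.4, 12.7 and 10.9 FPKM and 24.8, 32.7, 33.1 and 20.5 FPKM (difference 1.01 ± 0.16 SE, adjusted p = 0.0109 by limma). The 4 block A lines were close together for Cyp51 and each block B line was far above them. The count was 10 without lines 20 and 44, 6 without ICSI 11 or control 37, and 7 to 10 without other single lines.

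Among 17 genes of fatty acid synthesis, 8 were called higher and 0 lower, with a median of 0.42. Among those called were 2 desaturases and an elongase. The desaturase Scd2 was at 34.8, 39.3, 41.2 and 33 FPKM and 52.7, 67.6, 76.8 and 50.3 FPKM (difference 0.71 ± 0.15 SE, adjusted p = 0.0215 by limma), with Scd1 (difference 0.91 ± 0.16 SE, adjusted p = 0.0148 by limma) and the elongase Elovl5 (difference 0.67 ± 0.10 SE, adjusted p = 0.00913 by limma) in the same direction. Fasn, Acaca and Acly, named whatever they did, were not called. Fasn, fatty acid synthase, was at 57.9, 56.5, 38.7 and 59.7 FPKM and 34.2, 45.4, 39.8 and 40.1 FPKM (difference -0.39 ± 0.15 SE, adjusted p = 0.097 by limma), Acaca differed by -0.24 (limma adjusted p = 0.115) and Acly by 0.16 (limma adjusted p = 0.39). The count of 8 was 2 without ICSI 11 or control 37, 4 without ICSI 17 and 5 to 8 without other single lines.

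Of 23 genes that the hypoxia-inducible factors switch on, 10 were called higher and 0 lower, with a median of 0.44. Egln3, a prolyl hydroxylase that marks the factors for destruction, was at 5.37, 5.54, 5.68 and 5.12 FPKM and 11.1, 13.6, 9.44 and 14.9 FPKM (difference 1.03 ± 0.14 SE, adjusted p = 0.00855 by limma). Slc2a1, the main glucose transporter, was at 28.3, 22, 34.1 and 24.5 FPKM and 45.2, 71.7, 52.6 and 62.6 FPKM (difference 1.06 ± 0.17 SE, adjusted p = 0.0123 by limma). P4ha1, a collagen prolyl hydroxylase, was at 14.7, 16.1, 20.3 and 11.9 FPKM and 21.6, 45.8, 34.2 and 40.1 FPKM (difference 1.09 ± 0.23 SE, adjusted p = 0.0224 by limma). These blocks did not overlap, and ICSI 20 was the lowest block B line for Slc2a1 and P4ha1. Ero1l, the oxidase that drives disulfide formation in the endoplasmic reticulum, varied most, at 27.7, 30.8, 22.6 and 22.6 FPKM and 31.4, 131, 62.4 and 82.1 FPKM (difference 1.37 ± 0.37 SE, adjusted p = 0.0397 by limma). Its ICSI 20 value was next to the block A lines and its ICSI 21 value was the highest. Bnip3 (difference 0.51 ± 0.27 SE, adjusted p = 0.207 by limma) and Vegfa (difference 0.22 ± 0.31 SE, adjusted p = 0.646 by limma) did not pass.

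Glucose transport and glycolysis had a median of 0.44 over 23 genes, but 3 were called higher and 0 lower. These were Slc2a1, the lactate carrier Slc16a1 (difference 0.44 ± 0.08 SE, adjusted p = 0.0162 by limma) and Slc2a3, a second glucose transporter, at 9.32, 11.4, 8.6 and 8.5 FPKM and 10.8, 45.1, 25.7 and 33.1 FPKM (difference 1.35 ± 0.37 SE, adjusted p = 0.0405 by limma). ICSI 20 was inside the block A range for Slc2a3 and the other block B lines far above it. Without ICSI 20 the list counted 11 higher and 0 lower, and so it did without lines 20 and 44, while without ICSI 11, ICSI 17 or control 37 it counted 1, and 2 or 3 without the others. The hypoxia count was 4 without ICSI 11, ICSI 17, control 37 or control 44, 5 without control 45, and 8 to 10 without the others. It was 6 under quantile normalization and 7 after the trends on GC content and length were removed.

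The upstream sequences of the hypoxia genes were searched for ACGTG, the core of the element that hypoxia-inducible factors bind, on both strands in the 250 bases before each RefSeq transcription start. A gene counted if any of its starts held the core. RefSeq promoters were matched by symbol for 17 of the 23 genes tested, and 12 of them (70.6%) held it, including 4 of the 5 matched genes called higher. Among all 9539 matched genes tested the share was 26.1%, and among 27025 genes with a promoter 18.5%. The list was itself made of genes known to be switched on by these factors, so its higher share is no result of the block comparison. The upstream bases of 2 of these genes are shown because their blocks did not overlap and the core stands near the start, and the core is in capitals (GRCm38.p6, P4ha1 on chr10:59323046-59323295, plus strand, Slc2a1 on chr4:119108495-119108744, plus strand).
P4ha1: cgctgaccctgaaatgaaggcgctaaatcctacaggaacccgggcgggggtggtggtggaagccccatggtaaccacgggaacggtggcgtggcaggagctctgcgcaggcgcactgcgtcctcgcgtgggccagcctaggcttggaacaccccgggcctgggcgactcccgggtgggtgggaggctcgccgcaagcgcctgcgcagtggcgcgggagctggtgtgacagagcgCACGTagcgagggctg
Slc2a1: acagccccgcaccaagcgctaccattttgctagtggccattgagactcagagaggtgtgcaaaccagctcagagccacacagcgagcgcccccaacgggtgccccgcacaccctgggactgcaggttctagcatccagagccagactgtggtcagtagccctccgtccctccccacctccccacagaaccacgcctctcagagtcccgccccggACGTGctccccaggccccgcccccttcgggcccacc
In P4ha1 the core is on the minus strand and is printed as CACGT. A match is a description of these letters and no evidence of binding. Of the other motifs searched in the same way, CACCCCAC, a sterol regulatory core, was held by 2 of 15 matched sterol genes and by 3.21% of the matched genes tested, but also by 3 of the 17 matched hypoxia genes. The ETS core CCGGAA was held by 2 of 15 matched GDNF-responsive genes and by 26.4% of the matched genes tested.

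Of 24 chaperones and unfolded protein response genes of the endoplasmic reticulum, 8 were called higher and 0 lower (median 0.31). Hsp90b1, the reticulum's HSP90, was at 235, 230, 231 and 247 FPKM and 403, 315, 401 and 335 FPKM (difference 0.61 ± 0.11 SE, adjusted p = 0.0153 by limma), and Pdia3, a disulfide isomerase, was higher as well (difference 0.58 ± 0.16 SE, adjusted p = 0.0396 by limma). Hspa5, the master chaperone of this response, was at 144, 147, 154 and 141 FPKM and 242, 165, 260 and 167 FPKM and did not pass (difference 0.48 ± 0.16 SE, adjusted p = 0.0774 by limma), although its blocks did not overlap. ICSI 21 and control 45 were close to the block A lines for Hspa5 and ICSI 20 and control 44 were far above. The count was 0 without ICSI 11, 1 without control 37, 2 without ICSI 17 and 5 to 11 without other single lines. The median was 0.12 without lines 20 and 44. The mean log2 level of the list was 5.62 in ICSI 20 and 5.60 in control 44, against 5.30 in ICSI 21 and 5.37 in control 45. Control 29 of block A was at 5.24. Fibroblast and matrix markers were also higher in lines 20 and 44 than in lines 21 and 45, and their part in the result was not tested.

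Among 23 cytosolic heat shock genes, 9 were called higher and 1 lower (median 0.27). Hspa2, the HSP70 of germ cells, was at 4.2, 4.17, 5.73 and 4.91 FPKM and 8.5, 9.91, 8.53 and 8.69 FPKM (difference 0.79 ± 0.11 SE, adjusted p = 0.00913 by limma), and Hsp90aa1 was higher (difference 0.55 ± 0.16 SE, adjusted p = 0.048 by limma). The lower member was Hspa1a, which heat and other stress induce, at 4.86, 3.11, 5.96 and 5.93 FPKM against 2.64, 3.42, 2.82 and 2.78 FPKM (difference -0.58 ± 0.17 SE, adjusted p = 0.0469 by limma). The constitutive Hspa8 did not pass (difference 0.22 ± 0.12 SE, adjusted p = 0.222 by limma). The chaperonin that folds actin and tubulin had 3 of 8 subunits higher and 0 lower (median 0.29). They included Cct8, on chromosome 16 (difference 0.59 ± 0.14 SE, adjusted p = 0.0302 by limma), and Cct2 (difference 0.47 ± 0.10 SE, adjusted p = 0.0216 by limma), whereas Cct3 did not pass (difference 0.02 ± 0.08 SE, adjusted p = 0.903 by limma). The heat shock count was 2 higher without ICSI 11, ICSI 17, control 37, control 44 or lines 20 and 44, and the chaperonin count was 0 without each of these and under quantile normalization.

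Of 21 metallothioneins and zinc transporters, 7 were called higher and 0 lower (median 0.26). Slc30a4, which exports zinc into vesicles, was at 6.55, 7.4, 7.19 and 6.62 FPKM and 12.8, 9.19, 16.5 and 9.79 FPKM (difference 0.69 ± 0.17 SE, adjusted p = 0.0311 by limma). Mt1, a metal-binding protein, was at 204, 195, 247 and 199 FPKM and 365, 244, 293 and 291 FPKM and overlapped by ICSI 21 (difference 0.49 ± 0.14 SE, adjusted p = 0.0489 by limma), and Mt2 did not pass (difference 0.15 ± 0.18 SE, adjusted p = 0.57 by limma). The count was 0 without ICSI 11 or ICSI 17, 1 without control 37 and 2 to 7 without other single lines.

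Of 10 genes of the steroid hormone response, receptors included, 5 were called higher and 0 lower (median 0.37). Nr3c1, the glucocorticoid receptor, was at 6.37, 5.8, 6.79 and 5.33 FPKM and 11.2, 9.45, 9.65 and 9.6 FPKM (difference 0.64 ± 0.10 SE, adjusted p = 0.0123 by limma). Tsc22d3, a glucocorticoid target on the X chromosome, was at 65.2, 53.1, 56.5 and 55.6 FPKM and 109, 76.7, 104 and 93.3 FPKM (difference 0.71 ± 0.13 SE, adjusted p = 0.0144 by limma). Ddit4, an inhibitor of mTORC1 that hypoxia also induces, was at 10.7, 10.6, 31.1 and 8.66 FPKM and 27.3, 50.4, 37.1 and 37.8 FPKM (difference 1.42 ± 0.35 SE, adjusted p = 0.0318 by limma). Control 29 lay within the block B range for Ddit4 and the other block A lines far below it. Fkbp5, a further target, did not pass (difference -0.00 ± 0.10 SE, adjusted p = 0.987 by limma). The count was 1 without ICSI 11, ICSI 17, control 37 or lines 20 and 44 together, 2 without ICSI 20, control 44 or control 45, and 5 without the others.

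Clock genes counted 6 higher and 1 lower of 18 (median 0.15). Among the 18 differences 7 were below 0, and the gene Clock itself did not pass (limma adjusted p = 0.947). The activator Arntl (difference 0.55 ± 0.15 SE, adjusted p = 0.0458 by limma), the repressor Nr1d1 (difference 0.44 ± 0.12 SE, adjusted p = 0.039 by limma) and Hlf, an output factor (difference 0.87 ± 0.16 SE, adjusted p = 0.0152 by limma), were higher. Of 26 lysosome and autophagy genes, 5 were higher and 0 lower (median 0.21). The lysosomal enzyme Hexa (difference 0.46 ± 0.09 SE, adjusted p = 0.0204 by limma) and the membrane protein Lamp1 (difference 0.43 ± 0.10 SE, adjusted p = 0.0297 by limma) were among those higher, and the protease Ctsa did not pass (difference -0.02 ± 0.11 SE, adjusted p = 0.929 by limma). The clock count was 0 higher without ICSI 11, 1 without control 37 and 2 to 6 without other single lines. The lysosome count was 1 without ICSI 11, ICSI 17, control 37, control 44 or lines 20 and 44 together, and 3 to 7 without the others. The median of the lysosome list was 0.036 without lines 20 and 44. Its mean log2 level was 5.16 in ICSI 20 and 5.08 in control 44, against 4.76 in ICSI 21 and 4.80 in control 45. Control 29 of block A was at 4.83. Fibroblast and matrix markers were highest in the same lines, and their part in the result was not tested.

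**Figure D2:**
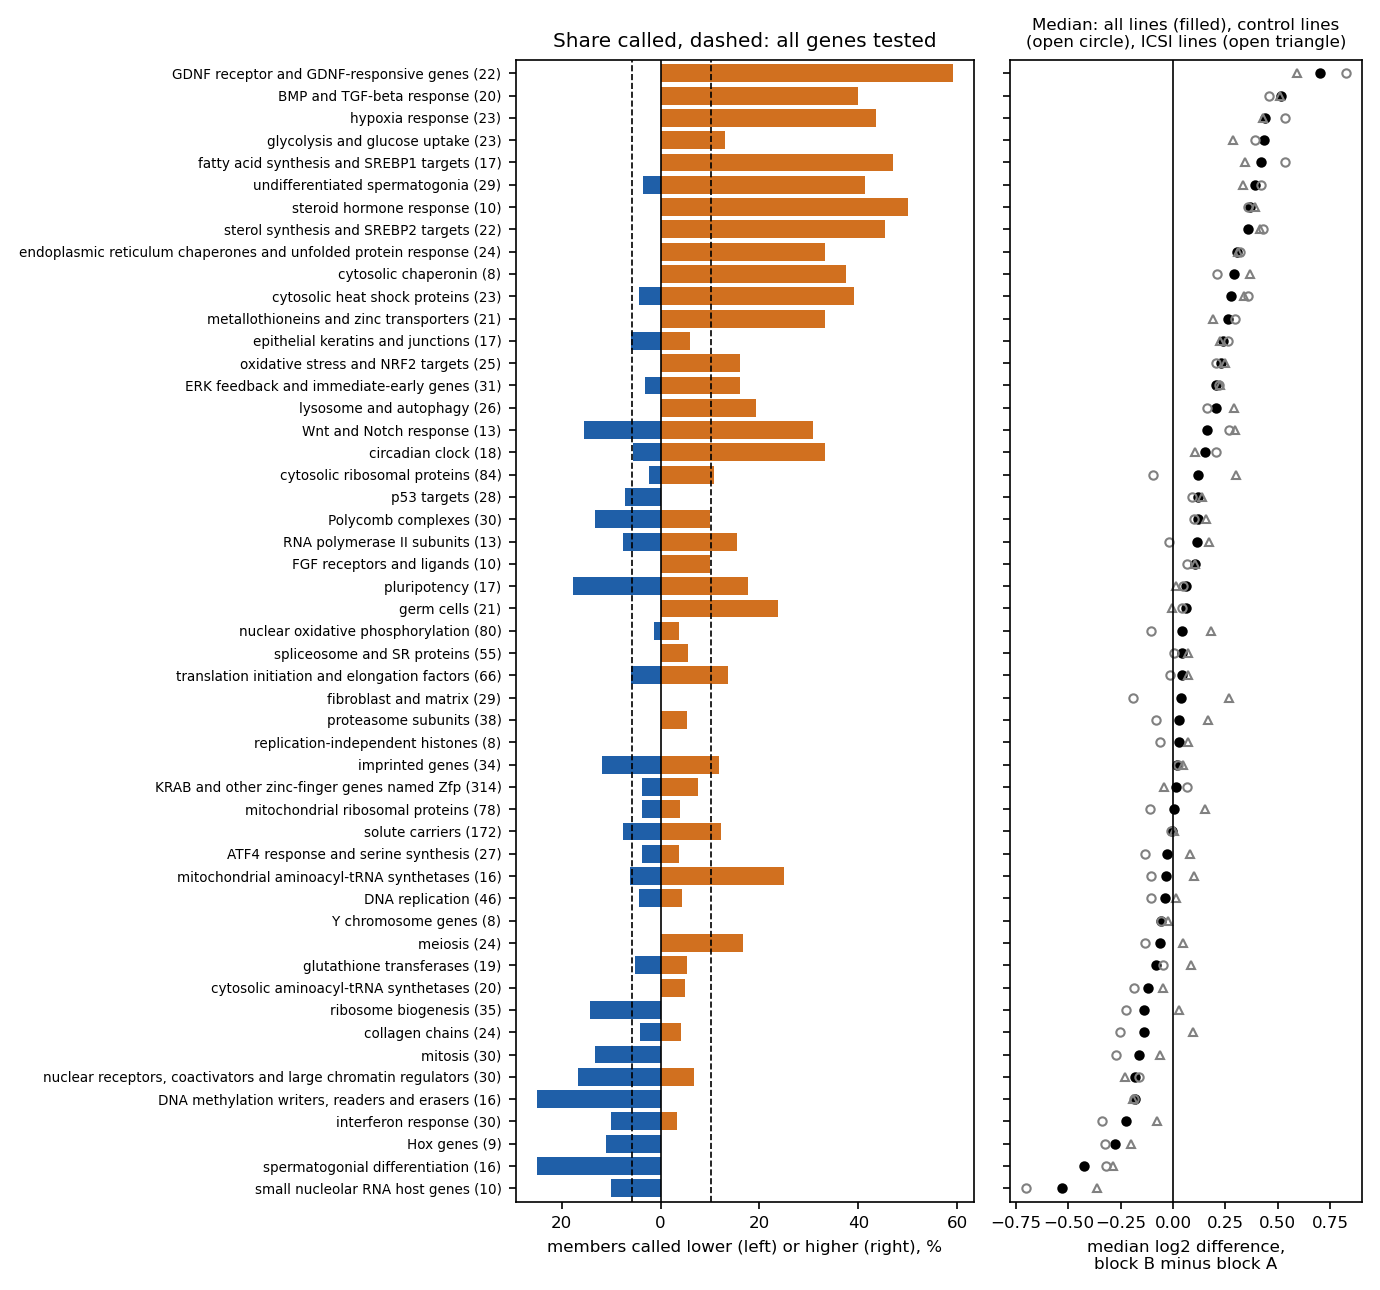
Left, the share of each gene list's tested members called higher (orange, right of 0) or lower (blue, left of 0) in block B, with the number tested in brackets and dashed lines at the shares over all genes tested, 10.2% and 5.76%. Right, the median log2 difference of each list over all lines and over control or ICSI lines alone. GDNF-responsive, steroid, fatty acid, sterol and hypoxia genes lie far beyond the dashed line, and cytosolic ribosomal protein, mitochondrial ribosomal protein and zinc-finger genes lie near or inside it.

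Several large families stayed near or below the background shares. Of 84 cytosolic ribosomal protein genes 9 were called higher and 2 lower, of 78 mitochondrial ribosomal protein genes 3 and 3, and of 80 nuclear genes of oxidative phosphorylation 3 and 1. Among 314 genes named Zfp, 24 were higher and 12 lower, and among 172 solute carriers 21 and 13. Of 38 proteasome genes 2 were higher and 0 lower, and of 46 replication genes 2 and 2. Ribosome biogenesis, mitosis and interferon-induced genes had larger shares lower than all genes tested, at 14.3%, 13.3% and 10% against 5.76%. Ribosome biogenesis had 0 higher and 5 lower of 35 (median -0.14, and 0.030 among ICSI lines alone). The lower count was 0 without ICSI 11, ICSI 17, control 37, control 44 or lines 20 and 44 together, 1 without control 45 and 4 or 5 without the others. It included Polr1a, the large subunit of RNA polymerase I, at 18.7, 17, 17.2 and 21.3 FPKM and 9.42, 13.6, 9.7 and 13.4 FPKM (difference -0.65 ± 0.14 SE, adjusted p = 0.0234 by limma), whereas the nucleolar methylase Fbl did not pass (difference 0.06 ± 0.09 SE, adjusted p = 0.668 by limma). Mitosis genes had 0 higher and 4 lower of 30, among them Cenpf of the kinetochore (difference -0.83 ± 0.21 SE, adjusted p = 0.0337 by limma) and Cdc20, an activator of the anaphase-promoting complex (difference -0.46 ± 0.12 SE, adjusted p = 0.0365 by limma), while Cdk1 did not pass (difference 0.05 ± 0.13 SE, adjusted p = 0.823 by limma). The mitosis count was 0 without ICSI 11, ICSI 17, control 37 or control 44, 3 without lines 20 and 44 together, and 1 to 4 without the others. Of the 30 mitosis differences 24 were below 0, with a median of -0.16. Interferon-induced genes had 1 higher and 3 lower of 30 (median -0.22). The lower ones included Ifi35 (difference -0.95 ± 0.17 SE, adjusted p = 0.0142 by limma) and Igtp (difference -0.65 ± 0.10 SE, adjusted p = 0.00993 by limma). Without single lines 1 to 7 were lower, with 7 without ICSI 21.

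Rmrp had the largest difference of the genes named, and Bc1 was the noncoding RNA among them with the largest difference below 0. Rmrp, the RNA of the RNase MRP complex that cuts ribosomal RNA precursors and a product of RNA polymerase III, was at 1.22, 0.379, 1.75 and 0.856 FPKM in block A and 24.4, 28.6, 30.8 and 25.4 FPKM in the block B lines (difference 3.82 ± 0.19 SE, adjusted p = 0.00011 by limma). Behind these values stood 3 to 13 reads in each block A line and 212 to 315 in each block B line. Bc1, a polymerase III transcript of rodents related to transfer RNA, went the opposite way, at 2043, 3035, 4901 and 1939 FPKM and 546, 667, 240 and 388 FPKM (difference -2.69 ± 0.37 SE, adjusted p = 0.00888 by limma). Every block B line was below every block A line for Bc1, whose reads numbered 8127 to 21802 and 1322 to 3865. The sequences are shown because the RNAs differ in their runs of A (GRCm38, from GENCODE transcripts). The longest run, in capitals, is 23 bases in Bc1 (chr7:144914470-144914637, plus strand, 168 bases) and 3 bases in Rmrp (chr4:43492783-43493063, minus strand, 281 bases), and A makes up 41.7% and 19.6% of their bases.
Bc1: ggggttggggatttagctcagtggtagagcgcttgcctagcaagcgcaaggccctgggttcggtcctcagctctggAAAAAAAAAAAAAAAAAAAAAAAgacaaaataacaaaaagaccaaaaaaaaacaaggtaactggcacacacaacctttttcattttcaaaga
Rmrp: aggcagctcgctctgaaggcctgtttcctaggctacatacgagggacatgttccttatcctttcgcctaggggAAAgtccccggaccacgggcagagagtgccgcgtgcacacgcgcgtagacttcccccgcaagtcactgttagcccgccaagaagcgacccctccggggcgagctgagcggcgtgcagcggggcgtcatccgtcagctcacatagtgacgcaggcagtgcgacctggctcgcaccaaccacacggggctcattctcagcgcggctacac
The part of the runs of A in these differences was not tested.

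Lars2, the mitochondrial leucyl-tRNA synthetase, and Gm15564, an antisense RNA on another chromosome, rose together. Gm15564 was at 89.3, 85.4, 88.3 and 77.5 FPKM and 1353, 919, 1121 and 648 FPKM (difference 3.5 ± 0.19 SE, adjusted p = 0.000152 by limma), and Lars2 at 23.4, 22.8, 23.5 and 20.6 FPKM and 328, 233, 250 and 161 FPKM (difference 3.33 ± 0.17 SE, adjusted p = 0.00011 by limma). In both, ICSI 20 was the highest and control 45 the lowest block B line. The transcripts share a stretch of 72 bases with 1 mismatch (98.6% identity), which lies after the coding part of Lars2 on chromosome 9 and in 2 exons of Gm15564 on chromosome 16. Reads from such a stretch can belong to either gene, so the value of each is uncertain. The stretch is shorter than the reads of 76 bases, and the share of reads that came from it was not measured. Both genes were listed here as genes that hold ribosomal RNA sequence. No ribosomal RNA sequence was available to check this, so the values may not measure the Lars2 message, and the source of the reads was not tested. In a search of all GENCODE transcripts the stretch was found in 3 genes, Lars2, Gm15564 and AA474408, and the last is not in the deposited table. A part of 30 bases of Gm15564 is shown with the base that differs from Lars2 in capitals (GRCm38, chr16:35981729-35981758, minus strand).
Gm15564: gaacgtgagctgggTttagaccgtcgtgag
The other mitochondrial aminoacyl-tRNA synthetases give the comparison for Lars2. Of all 16 tested, Lars2 included, 4 were called higher and 1 lower, and the median of the list was -0.034.

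Other noncoding RNAs were smaller in their differences. Gm14236, an antisense RNA on chromosome 2, was at 2.44, 1.71, 3.51 and 2.3 FPKM and 12.4, 13.1, 7.0 and 7.25 FPKM (difference 1.62 ± 0.23 SE, adjusted p = 0.00888 by limma), and the lincRNAs Gm10479 (difference 0.82 ± 0.12 SE, adjusted p = 0.00999 by limma) and Gm5165 (difference 0.51 ± 0.13 SE, adjusted p = 0.0349 by limma) were higher by less. Gm23925, a gene of 132 bases on chromosome 2, was at 8.35, 6.45, 10.01 and 10.3 FPKM and 1.22, 2.64, 1.39 and 3.09 FPKM (difference -1.70 ± 0.21 SE, adjusted p = 0.00792 by limma) on 5 to 35 reads a line. Gm7967 (difference -1.77 ± 0.38 SE, adjusted p = 0.0224 by limma) and 2700038G22Rik (difference -1.52 ± 0.41 SE, adjusted p = 0.0387 by limma) were lower as well. As classes, lincRNAs counted 7 higher and 40 lower of 246 (median -0.27), antisense RNAs 3 and 19 of 144 (median -0.14) and protein-coding genes 1214 and 631 of 11593 (median 0.034). The strand of the libraries is uncertain, since the kit in the labels is not the kit in the study's methods, so the values of antisense and overlapping genes are uncertain too.

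**Figure D3:**
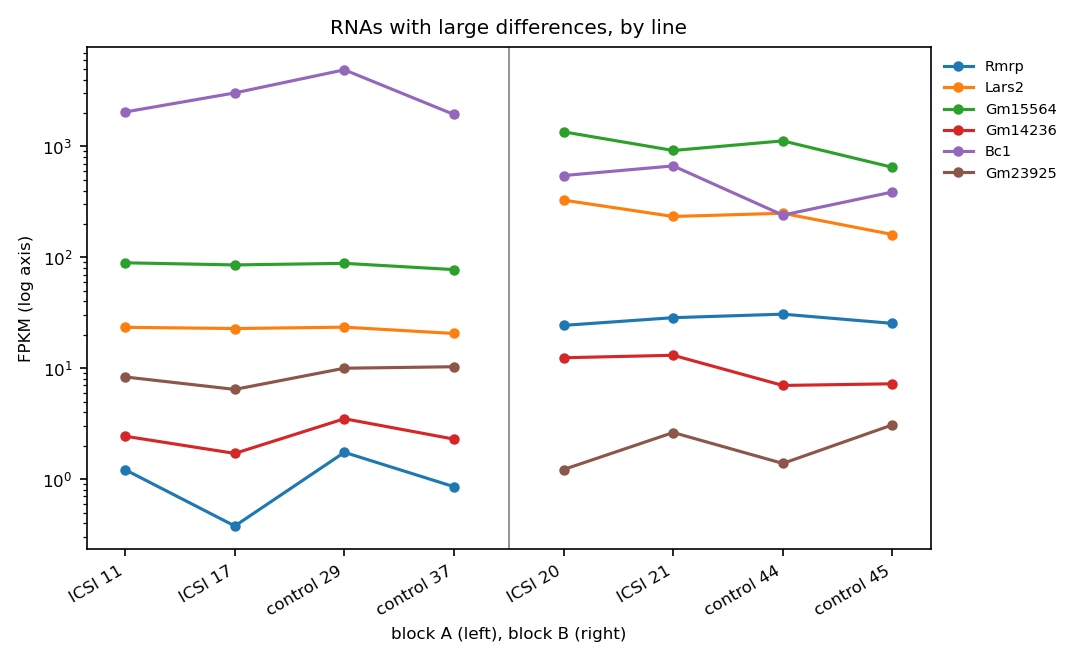
FPKM on a log axis of 6 RNAs in each of the 8 lines, block A lines left of the vertical line and block B lines right of it. Rmrp, Lars2, Gm15564 and Gm14236 are higher in all 4 block B lines, and Bc1 and Gm23925 are lower in all 4.

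Of 4 long nuclear noncoding RNAs tested 3 were called lower, with a median of -0.87. The count was 1 without lines 20 and 44 together or after the trends on GC content and length were removed, 0 without ICSI 11, ICSI 17, control 37 or control 44, and 1 to 3 without other single lines. Malat1, a lincRNA of nuclear speckles, was at 37.1, 30.7, 41.1 and 49.9 FPKM in block A and 1.88, 14.1, 3.6 and 12.8 FPKM in the block B lines (difference -2.47 ± 0.50 SE, adjusted p = 0.0193 by limma). Lines 20 and 44, 1 of each origin, were far below lines 21 and 45, which were themselves below all block A lines. Nktr, a cyclophilin with arginine- and serine-rich repeats, had the same order of lines at 27.6, 23.4, 19.5 and 30.7 FPKM and 3.06, 13.3, 4.24 and 12.2 FPKM (difference -1.70 ± 0.41 SE, adjusted p = 0.03 by limma). So did Mdn1, a giant ATPase of ribosome assembly, at 105, 89.1, 90.2 and 135 FPKM and 32.7, 74.5, 33.3 and 65.5 FPKM (difference -1.09 ± 0.29 SE, adjusted p = 0.0383 by limma), and Polq, a repair polymerase, at 9.02, 9.09, 6.13 and 7.86 FPKM and 1.58, 5.53, 1.94 and 3.97 FPKM (difference -1.17 ± 0.28 SE, adjusted p = 0.0303 by limma).

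This order of lines was counted after the values were seen. Lines 20 and 44 were both below the other 6 lines for 2128 of 12000 genes (17.7%), and for 404 of the 691 genes called lower (58.5%). Each of the other 5 pairs of block B lines was below the rest for 1.32% to 5.28% of all genes and for 4.34% to 13.6% of those called lower. Genes called lower were picked for low block B values, so some block B pair is lowest in them by selection. Their shares can be compared between pairs, but not with the shares of all genes. The share for lines 20 and 44 was 11.1% among the genes with the shortest transcripts and 24.6% among those with the longest, of 5 groups of equal size, and 14.9% and 24.4% in the lowest and highest of 5 such groups by GC content. The ubiquitin ligases Ubr4 and Herc2, named after their values were seen, gave examples. Ubr4 was at 61.1, 50.5, 52.9 and 73.4 FPKM and 18.6, 46.2, 20.7 and 37.3 FPKM (difference -1.01 ± 0.28 SE, adjusted p = 0.0446 by limma), and Herc2 at 28.1, 25.2, 23.9 and 32.9 FPKM and 8.22, 21.2, 8.48 and 18 FPKM (difference -1.03 ± 0.30 SE, adjusted p = 0.048 by limma). Transcript length and GC content moved with this order of lines, and their part in it was not tested. Without lines 20 and 44, 516 genes were higher and 223 lower.

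**Figure D4:**
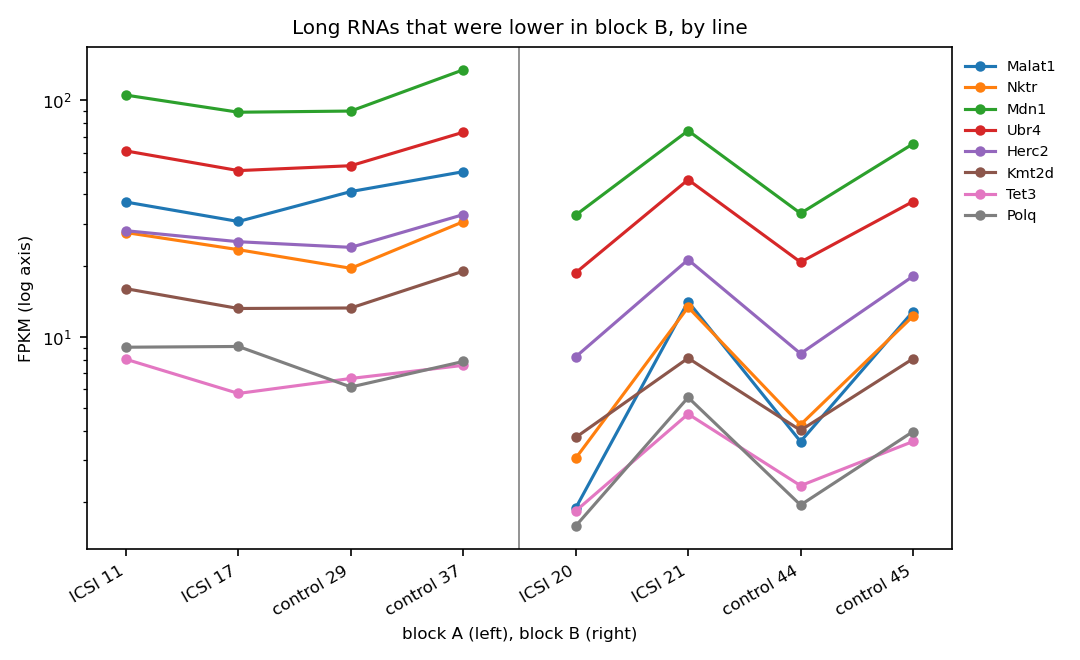
FPKM on a log axis of Malat1 and 7 long protein-coding genes in each line. In block B, ICSI 20 and control 44 lie below ICSI 21 and control 45 for all 8 genes, and all 4 lie below the block A lines.

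Large chromatin regulators, nuclear receptors and coactivators counted 2 higher and 5 lower of 30 (median -0.18). Without lines 20 and 44 they counted 1 and 1, with a median of -0.038, without single lines 0 to 3 higher and 0 to 7 lower, and the median was -0.062 after removal of the trends on GC content and length. Kmt2d, a histone H3K4 methyltransferase, was at 16, 13.2, 13.2 and 18.9 FPKM and 3.75, 8.12, 4.02 and 8.07 FPKM (difference -1.28 ± 0.25 SE, adjusted p = 0.0173 by limma), with lines 20 and 44 lowest. Smarca2, an ATPase of the SWI/SNF remodelling complex, was higher at 3.09, 2.96, 2.84 and 1.43 FPKM against 11, 4.51, 7.97 and 8.06 FPKM (difference 1.29 ± 0.26 SE, adjusted p = 0.0185 by limma). The acetyltransferase Ep300 did not pass (difference -0.05 ± 0.13 SE, adjusted p = 0.809 by limma). Among 16 genes of DNA methylation, 0 were called higher and 4 lower (median -0.18). Dnmt3l, the cofactor of de novo methylation in male germ cells, was at 3.96, 6.48, 3.44 and 5.34 FPKM and 1.69, 1.94, 3.14 and 0.925 FPKM (difference -1.01 ± 0.25 SE, adjusted p = 0.0319 by limma). Zfp57, which keeps imprints methylated, was lower (difference -0.58 ± 0.10 SE, adjusted p = 0.0144 by limma), as was the oxidase Tet3, at 8.03, 5.75, 6.66 and 7.56 FPKM and 1.83, 4.71, 2.34 and 3.6 FPKM (difference -1.0 ± 0.22 SE, adjusted p = 0.0243 by limma). The methyltransferases Dnmt1 (difference -0.18 ± 0.13 SE, adjusted p = 0.336 by limma) and Dnmt3a (difference -0.04 ± 0.10 SE, adjusted p = 0.79 by limma) did not pass. The methylation count was 0 without ICSI 11, ICSI 17 or control 37 and 2 to 5 without other single lines.

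Outside these groups, Penk, Mgp and Mrc1 were among the protein-coding genes with the largest rises. Penk, the precursor of enkephalins, was at 5.47, 8.18, 7.03 and 2.72 FPKM and 76.4, 35.2, 94.1 and 41.2 FPKM (difference 3.16 ± 0.37 SE, adjusted p = 0.00792 by limma). Mgp, which prevents calcification of matrix, was at 4.07, 5.68, 11.3 and 2.9 FPKM and 103, 15.6, 55.4 and 17.2 FPKM (difference 2.52 ± 0.62 SE, adjusted p = 0.0312 by limma). Ccn3, a matricellular protein, was at 1.48, 2.19, 2.92 and 0.796 FPKM and 11.5, 4.6, 14.1 and 6.42 FPKM (difference 1.78 ± 0.35 SE, adjusted p = 0.018 by limma). For these 3 genes lines 20 and 44 were the highest. Mrc1, the mannose receptor, was at 1.69, 2.31, 1.32 and 0.824 FPKM and 7.17, 5.8, 16.7 and 6.77 FPKM (difference 1.92 ± 0.31 SE, adjusted p = 0.0123 by limma), and Tmc8, a membrane channel-like protein, differed by 1.38 (limma adjusted p = 0.016). Of transcription factors, Dmrt2 was at 1.98, 1.44, 2.72 and 1.87 FPKM and 11, 3.7, 11.7 and 13.3 FPKM (difference 1.76 ± 0.28 SE, adjusted p = 0.0115 by limma) and Foxa2 at 2.84, 3.32, 4.35 and 2.06 FPKM and 12.6, 5.48, 16.4 and 7.63 FPKM (difference 1.40 ± 0.31 SE, adjusted p = 0.0237 by limma). Mpzl2, an adhesion protein, was higher by 1.42 (limma adjusted p = 0.0153).

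Of protein-coding genes that averaged at least 5 FPKM and whose blocks did not overlap, those with the largest falls included Saa3, Ccl11 and Lyz2. Saa3, a serum amyloid protein of inflammation, was at 8.08, 8.66, 39.1 and 23.5 FPKM and 6.79, 0.211, 2.24 and 0.426 FPKM (difference -2.74 ± 0.65 SE, adjusted p = 0.029 by limma). Ccl11, a chemokine that draws eosinophils, was at 11.7, 17.3, 20.6 and 12.5 FPKM and 6.6, 0.322, 5.19 and 0.733 FPKM (difference -2.32 ± 0.56 SE, adjusted p = 0.03 by limma). In both, ICSI 21 and control 45 were near 0 and ICSI 20 and control 44 nearer the block A lines, the reverse of their order for Malat1. Lyz2, a lysozyme, was at 22.8, 19.2, 44.1 and 34.8 FPKM and 4.74, 9.72, 3.36 and 13.2 FPKM (difference -1.92 ± 0.37 SE, adjusted p = 0.0173 by limma). Npr1, a receptor for natriuretic peptides, was at 9.19, 7.97, 9.44 and 11 FPKM and 2.35, 4.34, 2.3 and 3.18 FPKM (difference -1.38 ± 0.17 SE, adjusted p = 0.00792 by limma), and Pkd2l1, a cation channel, at 8.29, 6.76, 8.7 and 8.69 FPKM and 0.796, 2.73, 1.11 and 3.5 FPKM (difference -1.68 ± 0.28 SE, adjusted p = 0.0123 by limma). None of these blocks overlapped. Fbxo40 (difference -1.85 ± 0.27 SE, adjusted p = 0.00913 by limma), Lbhd2 (difference -1.55 ± 0.27 SE, adjusted p = 0.0144 by limma), Trp53i11 (difference -1.25 ± 0.28 SE, adjusted p = 0.0253 by limma) and Ly6g6e (difference -1.14 ± 0.19 SE, adjusted p = 0.0123 by limma) were lower too.

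Markers of other cell types give the setting for these genes. In bulk samples, fewer cells of a type and less RNA per cell cannot be told apart. Of 29 fibroblast and matrix markers tested, 0 were called either way, and their median was 0.039. Their summed level was 553 to 1573 FPKM in block A and 465 to 1592 FPKM in the block B lines, and their mean log2 level was 4.97 in control 29, 4.75 in control 44 and 4.47 in ICSI 20, the 3 highest lines, against 3.17 in control 45. Lines 20 and 44, with high fibroblast levels, were also the high lines for Penk, Mgp and Ccn3, and control 29 was the high block A line for Saa3, Ccl11 and Ccn1. The part of fibroblast RNA in these genes was not tested. Without lines 20 and 44 the median of the fibroblast list was -0.57. Of the 15 macrophage and blood markers 3 were tested and Lyz2 was called lower, with a summed level of 32.6 to 57.3 FPKM in block A and 15.4 to 25.4 FPKM in the block B lines. Most of that sum in block A was Lyz2, and the others did not pass, with a difference of 0.36 for Cd68 (limma adjusted p = 0.439) and -0.38 for Cd14 (limma adjusted p = 0.313). Mrc1, which macrophages also express, was higher. Sertoli markers had 1 higher (Sox9) and 1 lower (Wt1) of 5 tested, Leydig markers summed to at most 2.0 FPKM with Cyp17a1 listed at 0 in every line, and endothelial markers had 1 higher of 4. Prm1, Prm2 and Tnp2, which define late spermatids, were listed at 0 in every line, but so were mt-Atp6, mt-Atp8, mt-Nd3 and mt-Nd4l, which all cells use, so a listed 0 does not show absence. Of the 11 genes tested on the Y chromosome 1 was called higher (9.09%) and 0 lower.

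Chromosome 16 stood apart from the other chromosomes. Of its 388 genes tested 95 were called higher (24.5%) and 6 lower, with a median difference of 0.22, whereas the medians of the 18 other autosomes ran from -0.052 to 0.088 and their shares called higher from 5.97% to 14.5%. The difference lay mostly between control lines, with a median of 0.32 among them and 0.12 among ICSI lines. The median deviation of chromosome 16 genes from their own median over the 8 lines was -0.27 in control 29 and -0.31 in control 37, on the log2(FPKM + 1) scale and over 275 genes that averaged 5 FPKM or more. It was -0.034 in ICSI 11, 0.016 in ICSI 17, 0.078 in ICSI 20, 0.15 in ICSI 21, 0.16 in control 44 and 0.014 in control 45. The block A control lines were low, and the block A ICSI lines lay near 0. In 10 bins of 10 Mb along the chromosome, both block A control lines were below 0 in all 10, from -0.40 to -0.18 in control 29 and from -0.57 to -0.24 in control 37, while ICSI 20, ICSI 21 and control 44 were above 0 in all 10. Over the other autosomes the medians of these 2 control lines ran from -0.087 to 0.073. Cct8 and Gm15564, which were higher, and Polq and Fbxo40, which were lower, lie on chromosome 16, as does Etv5 of the GDNF list, which counted 12 higher without it. Without its genes 1131 genes were higher and 680 lower. The copy number of the chromosome was not measured here. The X chromosome had 63 of 455 genes higher (13.8%) and 17 lower, with a median of 0.14, and 0.032 after the trends on GC content and length were removed.

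**Figure D5:**
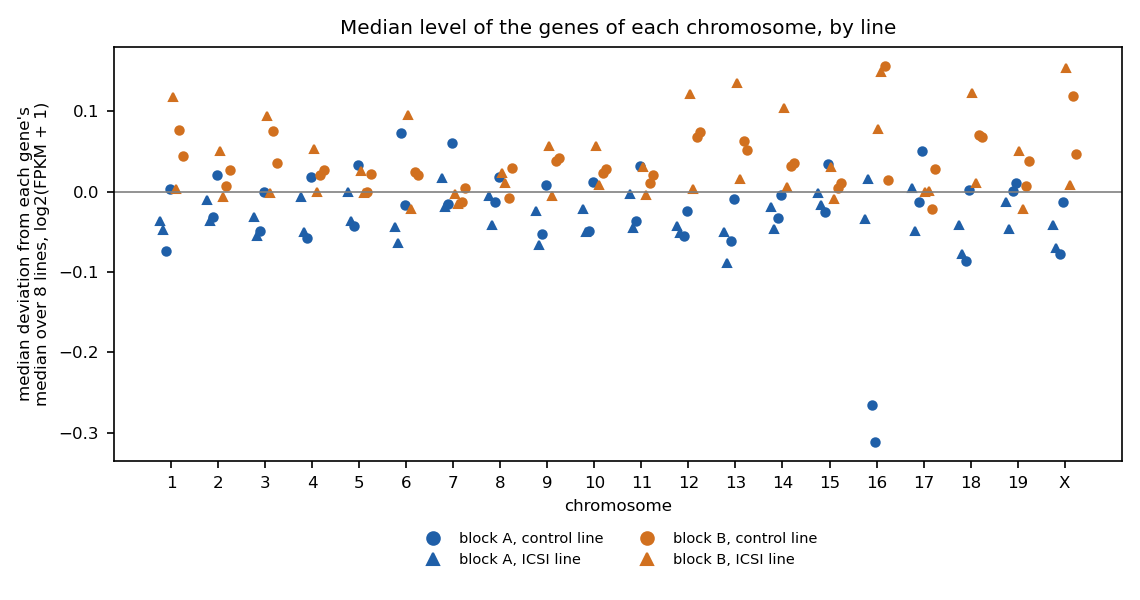
Median deviation of the genes of each chromosome from their own median over the 8 lines, with 1 point a line, blue for block A and orange for block B lines, circles for control and triangles for ICSI lines. On chromosome 16 control lines 29 and 37 lie at -0.27 and -0.31, below every other point of the plot.

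The difference followed the base composition of the genes. Genes were put in 5 groups of equal size by the GC content of their longest transcript. From the lowest to the highest group, the median log2 difference was 0.16, 0.085, 0.029, -0.050 and -0.093. The share called higher fell from 19.8% in the lowest to 4.67% in the highest group, and the share called lower was 2.29% and 9.50%. Over 5 groups by exonic length the medians were from -0.0045 to 0.061. After both trends were removed from each sample, 878 genes were called higher and 704 lower, so that 55.5% of the calls were higher. In that fit the GDNF list counted 13 higher, the sterol list 8, the undifferentiated list 12 and the hypoxia list 7, each with as many lower as before.

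The block difference did not separate by origin at this precision. With an interaction term of block and origin, limma called 0 of 12000 genes at an adjusted p of 0.05, and 147 (1.23%) passed an unadjusted p of 0.05. With 2 lines per combination this does not show that the block differences of control and ICSI lines were alike.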

How the data were processed

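RNA from 8 GS cell lines was sequenced by the authors as single reads of 76 bases, trimmed with cutadapt, aligned to mm10 with STAR and counted per GENCODE gene with htseq-count. The submitters' processing notes list STAR 2.7.9a, cutadapt 3.4 and HTSeq 0.13.5 for block A and STAR 2.6.0c, cutadapt 1.16 and HTSeq 0.11.2 for block B. The deposited values are FPKM, scaled by the authors to gene length and library size. The fold changes and p-values of the authors' own comparison were deposited too and were not used. The labels name a SMARTER and the study's methods a stranded TruSeq library kit, so strand is uncertain.

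Genes that averaged 1 FPKM or more were fitted as log2(FPKM + 1) with limma 3.58.1 in R 4.3.3 (lmFit, eBayes with a trend), with block and ICSI or control origin as terms, two-sided, and a Benjamini-Hochberg adjusted p under 0.05 was called. Adjusted p-values are from that fit over all genes tested. Depth was read from the deposited FPKM as whole reads, within 0.02 of a read, for 11990 of 12000 genes tested, with gene lengths and biotypes from GENCODE release 21, while the authors used a later release. Scripts were tested on simulated data. Named protein-coding genes were the 15 largest called in each direction with a mean of at least 5 FPKM and no overlap of the blocks, with 5 in each direction of other biotypes. Per list, up to 4 called members in each direction and the first 3 members that passed the filter were named, others are said to be chosen after their values were seen, and some genes of the rule are not reported here. The comparison and the 63 gene lists were chosen with earlier results of these data known. Transcripts were searched with blastn 2.17.0. Alternatives were other pseudocounts, filters, scalings and tests, thinned reads, protein-coding genes alone, and lines left out. Removal of trends on GC content and length, pairs of lines left out and chromosome 16 left out were added after the data were seen.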

Additional observations from a re-analysis of the deposited data

Results flagged for a closer look

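Single lines stood apart from the other 3 of their block for 18 of 360 groups of 4 values looked at, by Dixon's ratio of the gap to the whole range, and chance gives about 1 in 20. On the log2(FPKM + 1) scale, control 29 was the lowest block A line for Elovl5 (ratio 0.896), Fasn (0.870), Acly (0.923), Hsp90aa1 (0.918) and Ddx4 (0.962), and the highest for Ddit4 (0.839). Control 37 was the lowest block A line for Lamp1 (0.865) and Smarca2 (0.881). ICSI 21 was the highest block B line for Hspa2 (0.859) and the lowest for Dmrt2 (0.840), and ICSI 20 was the highest for Nr3c1 (0.877).

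Of mean levels of gene lists, control 29 was the lowest block A line for mitochondrially encoded messenger RNAs (0.843), fatty acid synthesis (0.848) and germ cell genes (0.953), and the highest for ATF4 response genes (0.896) and lysosome genes (0.922). Control 37 was the highest block A line for the chaperonin (0.936) and for mitosis genes (0.992). Every block A line in these groups was control 29 or control 37.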

How the results depend on the processing

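Without single lines the number of genes called ranged from 210 to 2691 in all, from 172 to 1615 higher and from 38 to 1076 lower, against 1917, 1226 and 691 with all lines. It was 739 (516 higher, 223 lower) without lines 20 and 44, 4 (4 and 0) without lines 29 and 37 and 2 (2 and 0) without lines 11 and 17, where block A keeps lines of 1 origin, so that the block difference rests on fewer lines. With no filter it was 1255 (761 higher, 494 lower) of 23964 genes, and with a mean of at least 5 FPKM 422 were lower. The other scalings, pseudocounts, tests and gene classes gave 1540 to 2507 calls, and the interaction had 0 under each of its 7 alternatives. Of the 98 called genes named with their values, 96 lost the call without lines 11 and 17, 94 without lines 29 and 37, 45 without lines 20 and 44, 42 with no filter, 15 after removal of the GC and length trends, 13 under quantile normalization, 7 as TPM, 4 with limma-voom and 3 under median-of-ratios scaling, and none changed sign. Of genes that were not called, some did, and the cause was not tested. With the GC and length trends removed the log2 difference was -0.036 for Cct3, 0.061 for Fkbp5, 0.036 for Ctsa, 0.087 for Ep300, 0.15 for Dnmt3a, -0.090 for Mael and -0.013 for Cdk1. Without lines 11 and 17 it was -0.027 for Zbtb16, -0.070 for Cct3, 0.018 for Fkbp5, 0.00060 for Ep300, 0.12 for Dnmt3a, -0.00018 for Mael and -0.11 for Cdk1. Without lines 20 and 44 it was -0.030 for Zbtb16, 0.27 for Fos, -0.051 for Cct3, -0.081 for Mt2, 0.025 for Fkbp5, 0.11 for Ep300, -0.061 for Mael, 0.37 for Sycp2, -0.0058 for Cd68 and -0.037 for Fbl, and without lines 29 and 37 it was 0.13 for Ctsa. Under quantile normalization it was -0.12 for Zbtb16, -0.032 for Acly, -0.025 for Hspa8, -0.15 for Cct3, -0.16 for Mael, -0.052 for Fbl and -0.016 for Cdk1. Under median-of-ratios scaling it was -0.020 for Zbtb16 and -0.021 for Cct3, as TPM -0.035 for Zbtb16, -0.037 for Cct3 and -0.0064 for Cdk1, and with thinned reads 0.0073 for Fkbp5. Without single lines it ranged from -0.12 to 0.17 for Zbtb16, -0.34 to 0.071 for Fos, -0.011 to 0.50 for Vegfa, -0.037 to 0.052 for Cct3, -0.0066 to 0.30 for Mt2, -0.075 to 0.061 for Fkbp5, -0.095 to 0.073 for Ctsa, -0.15 to 0.025 for Ep300, -0.086 to 0.0088 for Dnmt3a, -0.00050 to 0.17 for Mael, -0.59 to 0.028 for Sycp2 and -0.068 to 0.14 for Cdk1. No paired analysis was possible because the blocks share no line number. Reads limit Rmrp and Gm23925 most, with as few as 3 and 5 reads in a line.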

Other observations

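Small nucleolar RNA host genes, whose introns hold the guide RNAs for ribosomal RNA modification, had 0 members higher and 1 lower of 10, with 9 of the 10 differences below 0 and a median of -0.53. Their median was -0.70 among control lines and -0.36 among ICSI lines, and -0.21 without lines 20 and 44. Imprinted genes had 4 higher and 4 lower of 34 tested (median 0.017). Oxidative stress genes under NRF2 had 4 higher and 0 lower of 25 (median 0.23), and 22 of the 25 differences were above 0. Genes of the Wnt and Notch response had 4 higher and 2 lower of 13, and Polycomb genes 3 and 4 of 30. Without ICSI 11 the NRF2, Wnt and Notch, and Polycomb lists had 0 calls each and the imprinted genes 0 higher and 1 lower, and without lines 20 and 44 the median of the NRF2 list was 0.031. The 9 Hox genes tested all had differences below 0, with 1 called lower and a median of -0.28, which was 0.054 without ICSI 21.

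The 7 mitochondrially encoded messenger RNAs tested had no call, a median of -0.46, and a summed level of 13871 to 24000.1 FPKM in block A and 10894 to 15650.0 FPKM in the block B lines. Replication-dependent histone genes, whose messages lack a poly(A) tail, had 0 calls among 5 tested of 58 in the table.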
